A study of Ovis aries with 36 samples.

Results

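The loci described here are unannotated transcription units that were assembled in the same stretch of the sheep genome as an annotated gene. A locus was a member when its entry carried no Ensembl gene identifier, when its span overlapped that of an Ensembl locus by at least 1 base, and when its counts summed to at least 180 over the 36 libraries. The members were thus chosen by their summed count, and 1071 of 31136 distinct loci met the rule. Another 822 overlapping unannotated loci fell below the minimum, and 2141 unannotated loci at or above it overlapped no Ensembl locus. The 36 libraries came from 9 muscles of each of 4 cross-bred lambs of 14 months. In the hind limb and rump these were ST (Semitendinosus), SM (Semimembranosus), GM (Gluteus medius), RF (Rectus femoris), GB (Gluteobiceps, its cranial part) and AD (Adductor). The others were PM (Psoas major) and LL (Longissimus lumborum) of the loin, and SS (Supraspinatus) of the shoulder. Every lamb gave every muscle, and each muscle therefore had 4 libraries. The purpose was to compare gene expression between muscles that differ in their metabolism and contraction.

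Unannotated units that share a region with a gene can be unannotated exons or ends of that gene, retained intron sequence, antisense transcripts, or separate noncoding genes. Skeletal muscle is a mixture of slow, oxidative fibres and fast, glycolytic fibres, and many contractile and calcium handling genes have a slow and a fast form. The muscles compared here differ in that mixture, and SS and ST are the pair that the study sets furthest apart.

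All 1893 overlapping unannotated loci had exactly the span of an Ensembl locus, so the span in the files is that of the assembled region and not that of the unit itself. Where a member lies within its region, and on which strand, is not in the files. Its counts and those of the gene can therefore not be separated by position or strand here. The most counted Ensembl locus of the region was taken as the host. The members fell into 307 regions with 307 hosts. There was 1 member in 164 regions, 2 to 9 in 116 and at least 10 in 27, and those 27 regions held 450 members. Members of 1 region share their surroundings and are not independent of each other. Regions were 766 to 2240416 bases long, with a median of 96279. In 115 of the 307 regions there were several Ensembl loci, up to 43.

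Most members were lowly counted. Summed counts ran from 180 to 69194 with a median of 426, and 776 members averaged under 20 counts per library. The 3 members just inside the minimum, XLOC_001057, XLOC_005784 and XLOC_010891, had 180 counts each, and the 3 just outside had 179 each. A member had a median of 9.24% of the counts of its host, with quartiles of 4.32% and 22.4%. In 51 cases the member had more counts than its host, and in 73 regions the members together had more.

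Library depth was 3699148 to 6427422 counts, of which 65.7% to 78.3% fell on the 4 most counted loci. The members took 0.881% to 2.68% of the remaining counts. Set against the summed counts of their hosts, the members amounted to 24.1% to 69.9%, and the highest value, in ST of lamb 2, rested on 1 locus, XLOC_009395. Without that locus the range was 24.1% to 52.7%. The means over 4 lambs were then lowest in ST, at 31.1% ± 3.87 (SD, n = 4), and in SM, at 33.8% ± 11.5, and highest in GM, at 46.8% ± 7.18. SS had 42.6% ± 6.92. SM and ST also had the libraries with the largest shares on the 4 most counted loci, 70.6% to 78.3% and 71.7% to 75.1%, against 67.2% to 73.5% in SS and 65.7% to 72.6% in GM. The part of these shares in the differences between muscles given below was not tested.

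**Figure D1:**
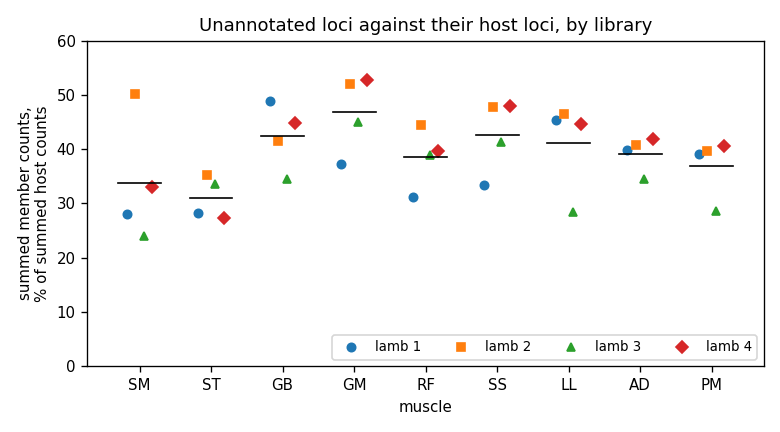
Summed counts of the unannotated loci as a percentage of the summed counts of their hosts (y axis) in each muscle (x axis), without XLOC_009395; each point is a library, marked by lamb, and the line is the mean of 4 lambs. The mean is lowest in ST, with libraries at 27.3% to 35.2%, and highest in GM, with libraries at 37.3% to 52.7%. The lowest single library is in SM, at 24.1%, and most muscles overlap.

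The member with the most counts was XLOC_018678 on chromosome 25 (chr25:9356499-9442092, Oar_v3.1, host ENSOARG00000023172), with a mean of 324 CPM, the counts scaled to a common TMM-adjusted library size. In SS it had 300, 441, 231 and 483 CPM in lambs 1 to 4, and in ST 307, 131, 92.3 and 191 CPM. The ranges of these muscles overlapped, lamb 3 was the lowest in both, and the joint test of the 9 muscles did not call it (FDR 0.135). The other members among the 8 with the highest mean were XLOC_016684 (110 CPM), XLOC_009395 (109.99 CPM, nearly all from 1 library), XLOC_029768 (83.5 CPM), XLOC_002635 (67.1 CPM), XLOC_016047 (55.3 CPM), XLOC_012467 (52.0 CPM) and XLOC_002634 (51.2 CPM). XLOC_016047 lies in the shortest region, where the Ensembl locus itself had 0 counts in all libraries.

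Of the 1071 members, 1019 passed the filter on low counts, which was applied by muscle. Over the 9 muscles 120 of these 1019 members differed at an FDR of at most 0.01 in edgeR's quasi-likelihood test with the lamb as a block, or 11.8%, against 9.73% of all 12461 loci tested. Of the 307 hosts 289 could be tested, and 51 of these were called. The called members lay in 54 regions, and 89 of the 120 lay in 23 regions with at least 2. The highest mean was in GM for 36.7% of the 120, against 9.41% of all called loci, and in SS and LL for 25.8% and 15%, near the 23.5% and 14.4% of all called loci. The lowest mean was in ST for 46.7%, against 20% of all called loci, and in SM for 30.8%, against 18.3%. In at least 1 of the 36 pairs of muscles, 177 members were called at an absolute log2FC above 1, against 9.43% of all loci. The joint count depended on the lambs, with 29 members called without lamb 4, 53 without lamb 3, 65 without lamb 1 and 78 without lamb 2.

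In the 4 comparisons the study describes, the members were nearly all called in 1 direction where ST or SM was involved. Between ST and SS, 61 members were higher in SS, against 1.56% of all loci, and 1 was higher in ST, against 0.682%. Between SM and SS, 48 were higher in SS, against 2.49%, and 1 was higher in SM, against 0.522%. Unannotated loci that are no members were called higher in SS in 118 of 2149 cases, or 5.49%, beside 4.71% of the members. Between ST and GM, 75 were higher in GM, against 1.56%, and 1 was higher in ST, against 0.642%. Between LL and SS, 12 members were higher in LL, against 1.24%, and 9 higher in SS, against 1.16%. Without lamb 1 this split reversed to 6 higher in LL and 15 in SS. These comparisons share SS or ST libraries, so they are not separate observations.

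The members as a whole were shifted in the same comparisons. Their median log2FC was -0.42 for ST vs SS, -0.46 for SM vs SS, -0.56 for ST vs GM and 0.01 for LL vs SS, while the medians of the 289 tested hosts were 0.01, -0.01, -0.05 and 0.08, and those of all loci were between -0.03 and 0.01. The 2095 tested unannotated loci that overlap no Ensembl locus were shifted as well, with medians of -0.32, -0.37, -0.35 and -0.02 in the same order. When the TMM factors were computed from the members alone, the median of all loci moved up by more than 0.4 in the comparisons with ST or SM, and the split of calls changed to 9 higher in ST and 31 in SS, to 13 higher in SM and 10 in SS, and to 14 higher in ST and 31 in GM. This scaling sets the median of the members near 0 by its construction. RLE scaling left the SM vs SS split at 1 and 48, but its factors come from all tested loci, as do the main TMM factors. The part of scaling in the shift was not tested. Without lamb 4 the calls were 23 for ST vs SS, 13 for SM vs SS, 29 for ST vs GM and 11 for LL vs SS. Without lamb 2 they were 34 for ST vs SS and 45 for ST vs GM, and without lamb 3 they were 14 for SM vs SS and 6 for LL vs SS. Without the ST library of lamb 2 there were 41 for ST vs SS, and without the SM libraries of lambs 1 and 3 there were 6 for SM vs SS.

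**Figure D2:**
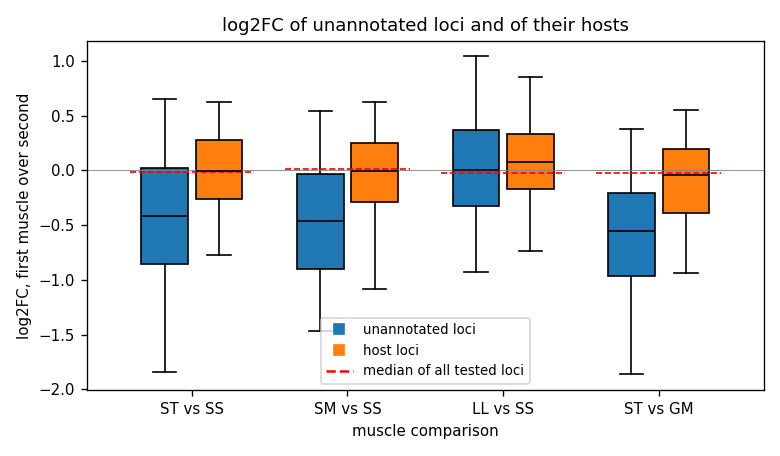
log2FC (y axis) of the tested unannotated loci and of their hosts in 4 muscle comparisons (x axis); boxes are quartiles with the median, whiskers the 5th and 95th percentiles, and the dashed line is the median of all tested loci. The boxes of the unannotated loci lie below those of the hosts in the comparisons with ST and SM, and close to them in LL vs SS.

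The region with the most members was chr12:18028459-18720283 (Oar_v3.1), with 39 members beside host ENSOARG00000011335. It holds the position of an unannotated transcript that the study places near ESRRG, the gene of an estrogen-related receptor that controls oxidative metabolism. All 39 members had a lower fitted level in ST than in GM, as had 84.7% of all 1019 tested members. In the 39 members the log2FC ran from -0.29 to -3.56 and 21 were called, while the host differed by -2.07 (FDR 0.00822). Against SS, ST was lower by log2FC of -0.42 to -2.99, with 18 called. XLOC_005771 had 0.531, 0.436, 0.165 and 0.215 CPM in ST of lambs 1 to 4, and 6.26, 2.84, 3.35 and 3.77 CPM in GM. No ST library reached any GM library, and the log2FC was -3.56 (FDR 1.98e-08). A count of 3 equals 0.365 to 1.02 CPM, depending on the library. The ST values of XLOC_005771 lay within or below that range, so the size of its change is poorly fixed. For XLOC_005798 the levels were 3.72, 1.09, 1.98 and 0.215 CPM in ST and 17.6, 11.6, 11.5 and 6.56 CPM in GM, again without overlap, with a log2FC of -2.88 (FDR 2.18e-06).

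The members of the chromosome 12 region also differed between lambs. Their summed level was highest in lamb 1 in 9 of 9 muscles, with a median over muscles of 607 CPM, against 194, 166 and 145 CPM in lambs 2 to 4. The host was highest in lamb 1 in 8 of 9 muscles. In the region chr19:28130677-28400140, with 33 members and a host listed under ENSOARG00000009348 and ENSOARG00000009378, the members were highest in lamb 1 in 8 of 9 muscles, with a median of 518 CPM against 181 to 229 CPM in the other lambs. Over all tested members, lamb 1 had the highest mean in 18.9%, so it was not the highest lamb in general.

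In the chromosome 19 region 12 of 33 members were called over the 9 muscles, and 10 were lower in SM than in SS. XLOC_012465 had 7.49, 6.93, 3.47 and 5.85 CPM in SM and 20.8, 12.6, 10.4 and 12.5 CPM in SS. Each SM library lay below each SS library, and the log2FC was -1.20 (FDR 0.00018), where the host had -0.42 (FDR 0.0621). The ratio of this member to its host differed by -0.75 on the log2 scale, which was not called (FDR 0.0176).

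On chromosome 1 the region chr1:224445384-224776390 held 13 tested members, all lower in ST than in GM by -1.04 to -1.70, and 10 were called. Its host, listed under ENSOARG00000001927 and ENSOARG00000014958, moved the same way by -0.90 (FDR 3.52e-05). XLOC_002819 had 3.45, 6.32, 10.7 and 10.7 CPM in ST and 11.7, 23.0, 38.2 and 29.3 CPM in GM. ST was lower in each lamb, the groups did not overlap, and the log2FC was -1.70 (FDR 9.44e-08). Over the 9 muscle means this member followed its host closely, with an r of 0.994 given as a description.

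In chr6:12359851-12941839 all 23 tested members had a lower fitted level in ST than in GM, by -0.88 to -2.42 with 10 called, and host ENSOARG00000000537 had -0.21 (FDR 0.343). The ratio of member to host over the 9 muscles was called for 0 of these members. In chr24:6246737-6557126 all 27 tested members had a lower fitted level in SM than in SS, by -0.49 to -1.83 with 3 called, and host ENSOARG00000005135, at -1.15 (FDR 4.8e-05), lay within their range. In chr19:5149353-5338962 the 6 members had log2FC of 1.47 to 2.63 for LL vs SS, 4 of them called, and host ENSOARG00000014735, at 2.17, again lay within the range. Of the 25 regions with at least 10 tested members, every member had a lower fitted level in ST than in GM in 11, and every member a higher one in 0. For SM vs SS, every member was lower in SM in 10 of these regions and higher in 0. The regions described singly were not picked by a set rule and serve as examples. Over all tested members, 84.7% had a lower fitted level in ST than in GM, and 76.5% a lower one in SM than in SS.

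**Figure D3:**
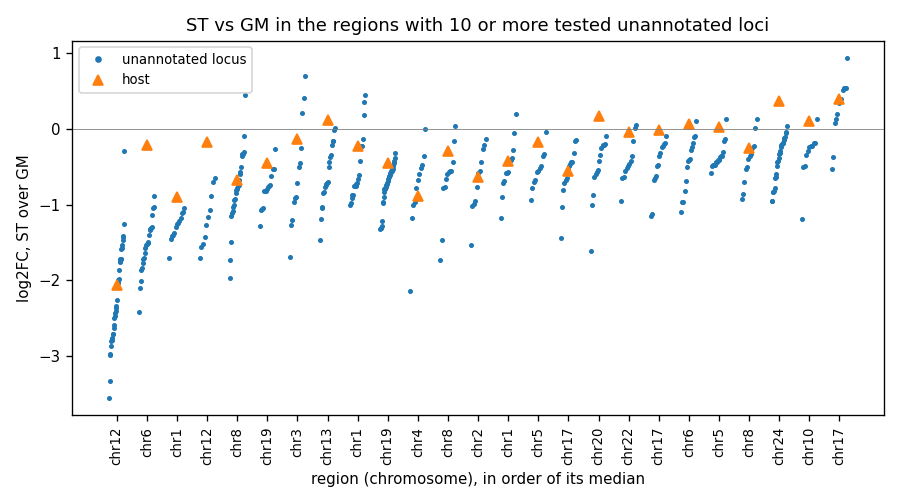
log2FC for ST over GM (y axis) of each tested unannotated locus (dots) and of the host (triangles) in the 25 regions with at least 10 tested members, ordered by the median of the members (x axis, labelled by chromosome). In the chromosome 6 region the 23 members lie at -0.88 to -2.42 and the host at -0.21.

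Few members lay beside the muscle genes for which the study prints positions. TPM3, a slow fibre tropomyosin, lies in chr1:103039221-103067829 with XLOC_000494 and host ENSOARG00000001845. XLOC_000494 had 4.25, 3.05, 5.28 and 3.65 CPM in ST and 18.3, 24.7, 31.3 and 25.8 CPM in SS. All ST libraries were lower than all SS libraries, with a log2FC of -2.59 (FDR 0.000111) beside -3.23 for the host (FDR 3.62e-09). The mean of the within-lamb differences was -2.53 ± 0.19 (SE, n = 4). PM had the highest level of this member, with 38.1, 44.3, 50.1 and 53.8 CPM, and PM was also the highest muscle of the host, with 178, 193, 284 and 213 CPM.

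The end of MYLK3, a myosin light chain kinase that acts in sarcomere organization, lies in chr14:14547940-14606419, with 3 members and host ENSOARG00000015706. XLOC_008331 had 0.266, 0.218, 0.66 and 0.429 CPM in ST and 2.52, 5.37, 8.5 and 5.39 CPM in SS. In LL it had 0.179, 0.713, 1.02 and 0.635 CPM. ST and LL were below SS in each lamb without overlap, with log2FC of -3.67 (FDR 2.23e-07) and -3.05 (FDR 6.7e-07), and the host had -3.75 and -1.78. XLOC_008329 had -4.65 for ST vs SS (FDR 7.35e-05), and XLOC_008330, with 192 counts in all, had -2.55 (FDR 0.0255). These members had under 1 CPM in ST, so their size of change is poorly fixed.

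An unannotated transcript that the study assigns to MYBPC1, a myosin binding protein of slow fibres, lies in chr3:170450235-170553298 with 3 members and host ENSOARG00000015112. XLOC_022047 had 5.79, 25.8, 13.9 and 27.7 CPM in SM and 37.5, 60.3, 69.8 and 84.5 CPM in SS. SM was lower in each lamb and the groups did not overlap, with a log2FC of -1.84 (FDR 2.09e-06) for the member and -1.43 (FDR 9.44e-07) for the host. Between ST and SS XLOC_022047 had -1.13 (FDR 0.000708) and the host -0.29 (FDR 0.316), but the difference of their ratio, -0.83, was not called (FDR 0.0889). XLOC_022048 and XLOC_022049 had -1.44 and -1.51 for SM vs SS (FDR 4.16e-05 and 0.0054).

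The KCNMA1 region, of a calcium-activated potassium channel, held XLOC_018932 and XLOC_018933, at 0.859 and 1.66 CPM, of which neither was called over the 9 muscles (FDR 0.0522 and 0.295).

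**Figure D4:**
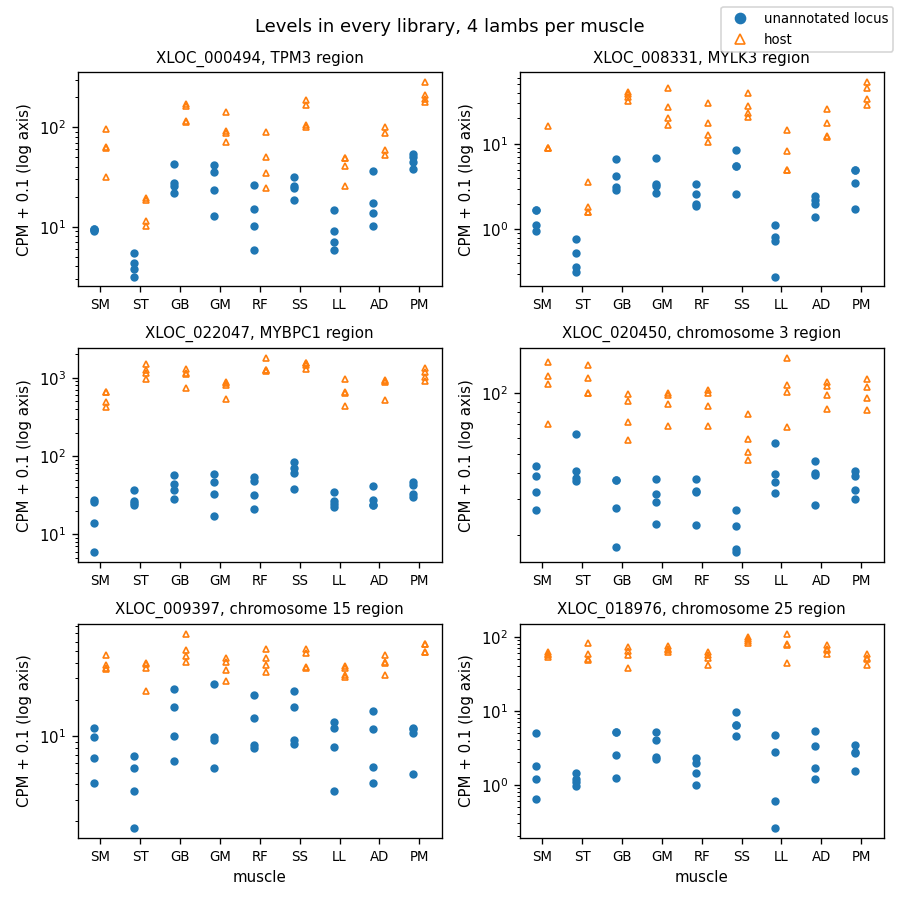
CPM plus 0.1 on a log axis (y axis) by muscle (x axis) for 6 unannotated loci (circles) and their hosts (triangles), with a point for each of 4 lambs. In the TPM3 and MYLK3 regions both series are lowest in ST, and on chromosome 25 the 4 SS libraries of XLOC_018976 reach 4.43 to 9.61 CPM.

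Only 1 member was called higher in ST than in SS. XLOC_020450 (chr3:207527728-207529618, host ENSOARG00000005428) had 41.2, 36.6, 38.1 and 62.5 CPM in ST and 16.2, 16.8, 21.96 and 26.2 CPM in SS. The groups did not overlap, and the log2FC was 1.14 (FDR 0.000301) beside 0.96 for the host (FDR 0.000615). The member higher in SM than in SS was XLOC_016984 in chr22:50211704-50500834, a region that holds KNDC1, with 47.3, 30.4, 37.9 and 38.3 CPM in SM and 17.2, 20.01, 18.8 and 17.9 CPM in SS. Every SM library exceeded every SS library, with a log2FC of 1.04 (FDR 3.05e-05), which was 0.92 without lamb 1 and so below the threshold of 1. XLOC_016984 summed to 4608 counts where the most counted of the 4 Ensembl loci of the region had 54. The study lists KNDC1 itself among the genes higher in SM than in SS. Whether that entry and XLOC_016984 are the same signal was not tested. The call higher in ST than in GM was XLOC_009395, described further on.

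Between LL and SS, XLOC_009481 (chr15:35388861-36106015, host ENSOARG00000005819) had 25.7, 33.8, 17.1 and 34.9 CPM in LL and 5.72, 13.6, 12.04 and 19.8 CPM in SS. LL was higher in each lamb, although the lowest LL library lay below the highest SS library, with a log2FC of 1.20 (FDR 2.1e-05) and 0.98 for the host (FDR 1.8e-05). In the same region XLOC_009483 had 1.28 (FDR 9.9e-05). Without lamb 1 the log2FC of XLOC_009481 and XLOC_009483 were 0.92 and 0.89, below the threshold of 1, and neither passed without the lamb block. XLOC_009616 (chr16:19769562-19905869) was lower in LL by a log2FC of -2.85 (FDR 4.2e-05) and in ST by -4.38 (FDR 1.66e-06). It had 2.52, 4.5, 9.21 and 5.97 CPM in SS, and 0.531, 0, 0.495 and 0 CPM in ST. With so few counts in ST, the size of its change between ST and SS is poorly fixed. Its Ensembl locus had 8 counts in all libraries together and could not be tested.

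Members were then compared with their hosts across muscles. Over the 9 muscle means the median Pearson r between member and host was 0.573 in 998 pairs, and 0.198 in 601 pairs of Ensembl loci that share a region. These are descriptions, since the points share libraries and the members of 1 region share a host. Crowded regions weigh more in them, as 25 regions held 416 of the 1019 tested members. The r was above 0.7 in 36.0% of the member pairs and in 10.8% of the Ensembl pairs. Of 116 called members with a tested host, the host was called over the 9 muscles in 52. The host had the sign of the called member in 59 of 60 cases for ST vs SS and 44 of 46 for SM vs SS. It did so in 20 of 20 cases for LL vs SS and 70 of 75 for ST vs GM. The host was itself called in the same direction in 22, 14, 12 and 27 of these cases, in the same order. No host was called in the opposite direction, but few hosts were called at all. For ST vs SS, 1.73% of the tested hosts were called higher in SS and 0.346% higher in ST. The share of like signs over all tested pairs is not given here, so the sign counts have no rate beside them. These cases are not independent, since called members of 1 region share a host. The called members lay in 27, 25, 12 and 31 regions in the same order.

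**Figure D5:**
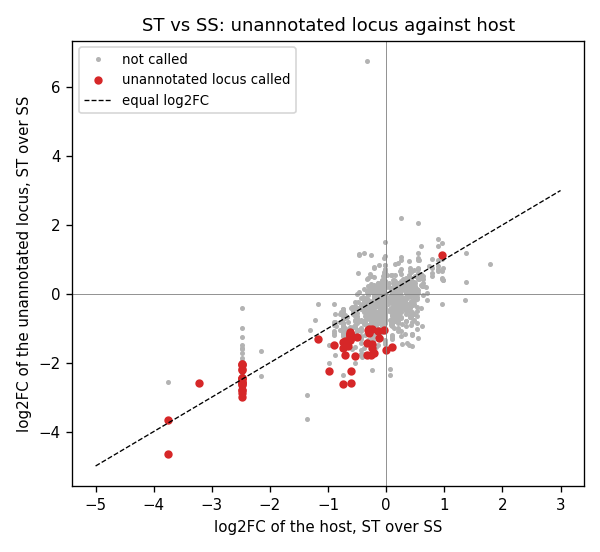
log2FC for ST over SS of each unannotated locus (y axis) against that of its host (x axis); red points are called, and the dashed line marks equal values. Of the 60 called loci with a tested host, 59 have a host with the same sign, and 48 lie below the line. The called loci were chosen by their own log2FC, and their hosts were not. The 48 can therefore not show that unannotated loci change more than their hosts.

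The log2 ratio of member to host, with a prior count of 2 added, differed over the 9 muscles for 12 of 998 members in limma at an FDR of at most 0.01, against 2.42% of all 1652 pairs tested. Between ST and SS 7 members were called in the ratio, against 1.15%, with 2 higher in ST and 5 in SS. This split turned to 13 higher in ST and 6 in SS with a prior count of 5, and to 6 and 2 with ratios centred on each library's median. The ratio was called for SM vs SS in 1 member, against 0.847%. The median difference of the ratio was -0.26 for ST vs SS and -0.25 for SM vs SS. The joint ratio calls fell to 0 without lamb 4, to 2 without lamb 3 and to 4 without lamb 1 or lamb 2. The 12 members lay in 9 regions, and 3 of them were the members beside MYLK3.

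Among the named ratio calls was XLOC_009397 (chr15:17226738-17264088, host ENSOARG00000011112). It had 3.45, 6.75, 1.65 and 5.37 CPM in ST and 9.15, 17.4, 8.5 and 23.3 CPM in SS, while the host had 36.4, 40.1, 23.4 and 38.9 CPM in ST and 37.3, 48.3, 36.0 and 52.4 CPM in SS. The member did not overlap between the muscles and the host did. The log2FC was -1.77 (FDR 5.55e-06) for the member and -0.33 (FDR 0.114) for the host, and the ratio differed by -1.36 (FDR 0.00064).

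XLOC_018976 (chr25:43082374-43137216, host ENSOARG00000001947) had 9.61, 6.24, 4.43 and 6.36 CPM in SS and 1.33, 1.09, 0.989 and 0.859 CPM in ST. No ST library reached an SS library. The log2FC was -2.60 (FDR 1.74e-05), with -0.61 for the host (FDR 0.0238), and the ratio differed by -1.56 (FDR 0.00761). XLOC_010027 went another way, since its host ENSOARG00000007210 was higher in LL than in SS by 1.24 (FDR 1.74e-05) and the member was not (-0.44, FDR 0.312), with a ratio difference of -1.68.

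In the region of XLOC_009397, XLOC_009395 had 3827 CPM in ST of lamb 2 and 1.37 to 9.07 CPM in the other 35 libraries. That library held 17569 of its 18353 counts. Its log2FC of 7.29 for ST vs GM (FDR 0.008) rested on that library, and 2 of the 4 lambs had the same sign. The host had 40.1 CPM in that library, within its range in the other lambs and muscles.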

How the data were processed

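RNA-Seq counts of 36 libraries were used, from 9 muscles of 4 lambs. Per the submitters' processing notes and the study's methods, the authors used TopHat2 2.0.13 for alignment to Oar_v3.1, assembled transcripts with Cufflinks 2.2.1 merged with the Ensembl annotation, and counted reads per locus with HTSeq. The deposited values are raw counts per locus. Each of 31136 loci was used once, and 1 locus without coordinates was left out of the overlap. Whether counting used strand is not given in the sources used here. Without molecular identifiers, counts carry amplification noise beyond counting error.

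Members and lists were chosen with earlier results of these data known. Members were named by level, by smallest p in the joint test, in each of the 4 comparisons and in the ratio test, by likeness to the host, and by positions the study prints, of which some are not reported here. MYLK3 was placed by its end alone, since the printed start has fewer digits. The files pair no symbols with identifiers, so genes of the muscle and cell type lists could be matched only where the study prints a position. Among these, only slow fibre and calcium handling genes matched members. For list genes without a printed position, it is not known whether members lie beside them.

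Loci were filtered with filterByExpr, scaled by TMM and fitted in edgeR 4.0.16 (R 4.3.3) with muscle and lamb. Each sample title gives a muscle and a number, and the number was taken as the lamb, which pairs the samples. The study describes a paired design in which each animal gave both muscles of a comparison. Quasi-likelihood tests were adjusted by Benjamini-Hochberg within each comparison over all loci, at an FDR of at most 0.01 and, for pairs, an absolute log2FC above 1. Log2 ratios to the host, with a prior count of 2, were tested in limma 3.58.1 over all pairs of loci that share a region. Scripts were tested on simulated data. Alternatives included DESeq2 1.42.0, other scaling, filters and priors, no lamb block, and each lamb left out. No genome of this build was used here, so no sequences are given.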

Additional observations from a re-analysis of the deposited data

Results flagged for a closer look

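In 10 of 135 groups of 4 lambs, taken over the 15 members given library by library, the highest or lowest lamb lay further from the others than Dixon's criterion for 4 samples allows. For independent samples of a normal distribution, about 1 in 20 such groups would pass the criterion. The groups here share the same lambs and hold members named for their results, so 10 of 135 cannot be set against that rate. The largest gap was that of XLOC_009395 in ST, with 3827 CPM in lamb 2 and 2.58 CPM in the next lamb. The same locus had a high lamb in GM at 6.32 CPM. XLOC_005798, of the chromosome 12 region, had a high lamb in GB (16.6 CPM), LL (26.6 CPM) and PM (12.04 CPM), which was lamb 1 each time, and XLOC_005771 of that region had one in AD (4.46 CPM), again lamb 1. XLOC_012465, of the chromosome 19 region, had a high lamb in GM (18.5 CPM) and AD (23.4 CPM), both lamb 1. XLOC_016984 had a high lamb in RF (26.0 CPM), and XLOC_009397 had a low lamb in PM (4.75 CPM). The part of library or lamb in these values was not tested.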

How the results depend on the processing

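Counts of called members are given in the order joint test of 9 muscles, any pair, then SS against ST, SM and LL, and ST vs GM, and were 120, 177, 62, 49, 21 and 76 as reported. DESeq2, RLE scaling and no filter on low counts left each within 1.5 times of these. The likelihood ratio test gave 248, 286, 80, 77, 34 and 118, and an FDR of 0.05 gave 258, 359, 116, 125, 44 and 149. With at least 10 counts in every library, which leaves 120 members to test, they were 46, 40, 20, 13, 4 and 22. With no lamb block, that is without the pairing, they were 11, 24, 9, 8, 5 and 10. With each lamb left out in turn they ranged from 29 to 78, 61 to 144, 23 to 51, 13 to 46, 6 to 22 and 29 to 60. TMM factors from the members, chosen after seeing the data like the next 3 settings, gave 78, 116, 40, 23, 19 and 45. Without the ST library of lamb 2 they were 91, 148, 41, 53, 22 and 52. Without the SM libraries of lambs 1 and 3 the joint count was 76 and the SM vs SS count 6. Without the chromosome 12 region every count stayed within 1.5 times. The log2FC of 20 named comparisons kept its sign under RLE scaling, without the block and with each lamb left out, and 15 of these values no longer passed a threshold, 9 of them without the block. The others were XLOC_016984, XLOC_009481 and XLOC_009483 without lamb 1, XLOC_018359 without lamb 3, and XLOC_018976 (LL vs SS) and XLOC_027123 without lamb 4.

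Members called in the ratio to the host, in the order joint test, ST vs SS and SM vs SS, were 12, 7 and 1. They were 6, 2 and 4 with a prior count of 0.5, and 15, 19 and 0 with 5. They were 4, 1 and 1 with at least 10 counts in every library, 2, 2 and 0 with precision weights, and 27, 26 and 19 at an FDR of 0.05. Without the block they were 1, 1 and 0, and with each lamb left out they ranged from 0 to 4, 1 to 7 and 0 to 2. Of the settings added after seeing the data, ratios centred on each library's median gave 7, 8 and 0, regions with 1 Ensembl locus gave 11, 6 and 2, leaving out the ST library of lamb 2 gave 7, 3 and 3, and the sum of the Ensembl loci as host gave 12, 7 and 1. The host with the largest summed count was the host used, since all spans tied. The ratio counts thus depended on prior, weights and lambs, and the cause was not tested. Most members averaged under 20 counts per library, and the part of depth was not tested.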
